A study of Mus musculus with 3 samples.

Results

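Foxc1 peaks far from any protein-coding gene and without a Foxc2 peak at the same place were examined in chromatin of mouse kidney glomeruli, the capillary tufts that filter the blood. A peak was a member when no Foxc2 peak overlapped it by 1 bp or more and its summit, the base of highest signal, lay outside every protein-coding RefSeq gene span and more than 50 kb from the nearest end of one. Members were thus chosen by the called positions of Foxc1 and Foxc2 peaks, which are measured values, so position and the absence of a Foxc2 overlap are no findings. The rule took 747 of 5207 Foxc1 peaks on chromosomes 1 to 19, X and Y (14.3%, exact Clopper-Pearson 95% interval 13.4 to 15.3%), or 15.6% of the 4780 Foxc1 peaks without a Foxc2 overlap. The glomeruli came from C57BL/6 mice at 8 weeks of age, with no genetic change or treatment named in the labels. There was 1 library for an antibody to Foxc1 (D8A6), 1 for an antibody to Foxc2 (AF6989) and 1 of input DNA from the same tissue source, and the input was not analysed here. Peak lists carry no expression values, so the labelled tissue could not be checked against its markers. Glomeruli hold podocytes, mesangial cells and capillary endothelium together, and a peak cannot be assigned to any of these cell types.

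Foxc1 and Foxc2 are closely related forkhead transcription factors, which contact DNA through a winged-helix domain that prefers sequences around TGTTTAC. Both act in the developing kidney and are made in podocytes, the epithelial cells that wrap the glomerular capillaries. Gene deserts are long stretches without protein-coding genes, and those beside developmental regulators are known to hold enhancers that act over long distances. The nearest gene of a peak in a desert is therefore an address, and it need not be the gene that the site acts on.

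For 16 members the deposited peak overlapped a RefSeq promoter window, from 250 bases before to 50 bases after an annotated start, of a gene that does not code for protein. Each belonged to a different gene. Of the 3366 such windows lying in deserts, members overlapped 19 (0.564%). In 10 of the 16 the summit itself fell inside the window, and these are the members whose sequence could be read (RefSeq, GRCm38.p6, the assembly of mm10). The stretches below show up to 75 bases on each side of the summit, clipped to the window and written 5' to 3' on the strand of the non-coding gene. Capitals mark the forkhead core TGTTTAC and the related words TGTTTGC and also TGTTTAT, on either strand. The first 5 are those that hold such a word near the summit, and the last, of highest fold among the 10, holds none.
Gm32954 (chr17:79451665-79451811, minus strand): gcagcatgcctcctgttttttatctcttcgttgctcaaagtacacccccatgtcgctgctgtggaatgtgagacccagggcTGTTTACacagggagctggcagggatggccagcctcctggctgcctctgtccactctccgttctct
Gm33370 (chr5:96922156-96922306, minus strand): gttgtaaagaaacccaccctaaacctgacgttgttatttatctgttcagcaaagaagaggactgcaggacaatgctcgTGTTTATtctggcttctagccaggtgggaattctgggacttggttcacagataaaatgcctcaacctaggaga
Halr1 (chr6:52102773-52102923, plus strand): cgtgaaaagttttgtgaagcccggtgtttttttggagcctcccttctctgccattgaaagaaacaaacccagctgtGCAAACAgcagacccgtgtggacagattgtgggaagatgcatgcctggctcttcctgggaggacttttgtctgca
4930432J09Rik (chr14:104027263-104027392, minus strand): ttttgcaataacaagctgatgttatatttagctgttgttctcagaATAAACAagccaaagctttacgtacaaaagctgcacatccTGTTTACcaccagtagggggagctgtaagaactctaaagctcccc
Gm13470 (chr2:46443048-46443155, minus strand): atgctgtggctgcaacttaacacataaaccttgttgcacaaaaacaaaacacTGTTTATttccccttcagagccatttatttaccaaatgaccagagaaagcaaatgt
Gm33538 (chr17:80785171-80785301, minus strand): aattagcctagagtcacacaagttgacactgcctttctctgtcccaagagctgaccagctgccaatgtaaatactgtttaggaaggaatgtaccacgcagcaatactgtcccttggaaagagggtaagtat

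The first 5 stretches were picked for a word in the part shown, so its closeness to the summit is set by that choice. The centre of the nearest word was 9 bases from the summit at Gm32954, 6 at Gm33370, 4 at Halr1, 6 at 4930432J09Rik, which has a pair of words, and 23 at Gm13470. A further window, that of Gm30848, held TGTTTGC outside the part around the summit. Thus 6 of the 10 windows with a summit held at least 1 of the 3 words, and 7 of all 16 did. Among all promoter windows 12.5% held a word, and among the 3366 windows of non-coding genes in deserts 18.4% did. With 16 windows this is a description, a match is not a site of binding, and the other members could not be searched because no genome sequence was used here. The Halr1 peak had a fold of 6.86. The peaks of Gm13470 (4.41) and Gm30848 (3.48) both lay in the desert beside Zeb2, a zinc finger repressor. The Gm33538 peak (9.97) was nearest to Map4k3, at 56.4 kb, and the 4930432J09Rik peak (5.06) to the endothelin receptor gene Ednrb, at 183 kb. The Gm32954 peak (8.54) lay 96.6 kb from Cdc42ep3, which encodes an effector of the GTPase Cdc42, and that of Gm33370 (8.39) 75.4 kb from the kinase gene Bmp2k.

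Desert peaks were about as tall as the other Foxc1 peaks without a Foxc2 overlap. Height here is the enrichment over local background that the caller recorded for each peak. The value is the authors' and serves only to describe and rank peaks of 1 list. The median fold of the members was 4.75 (95% order-statistic interval 4.71 to 4.90, quartiles 4.11 and 6.45, range 2.17 to 43.2). It was 4.90 for intergenic peaks within 50 kb of a gene, 4.88 for peaks in gene bodies and 5.06 for those within 1 kb of a gene end, all with lower quartiles of 4.11. Foxc1 peaks shared with Foxc2 had a median of 5.85. Folds come in steps, and the 747 members carried 206 different values, with 41 members at 4.27. A fold of 10 or more was reached by 70 members (9.37%, exact interval 7.38 to 11.7%), against 10.8% of all Foxc1 peaks, 9.48% in gene bodies and 23.9% of shared peaks. Taller members were wider, with a median width of 539 bp at a fold of 10 or more and 313 bp below it. There was 1 library per antibody and no replicate, so these values have no spread between animals, no test was made between classes, and the intervals here and below cover counting error only.

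**Figure D1:**
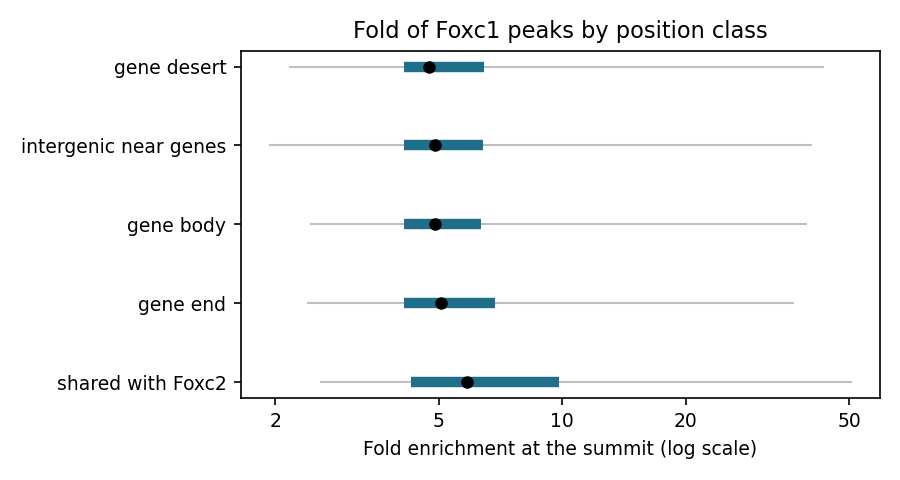
Fold enrichment at the summit of Foxc1 peaks (horizontal axis, log scale) for the 5 position classes. Points are medians, thick bars the quartiles and thin lines the whole range; the medians of the 4 unshared classes lie between 4.75 and 5.06, and that of shared peaks at 5.85.

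The tallest desert peaks stood beside genes of several kinds. The strongest (fold 43.2) lay on chromosome 5 (74792090 to 74792792, mm10), 89.4 kb from Lnx1, which encodes a ubiquitin ligase, with Chic2 on the other side of a desert of 302 kb. The second (37.8, chromosome 7, 71231140 to 71231850) lay 647 kb from the predicted gene Gm44812, toward Mctp2. The third (26.1, chromosome 1, 73199881 to 73200559) lay between Tnp1, a protein of sperm chromatin, at 184 kb, and Tns1, a tensin that ties integrins to actin. It was inside the long non-coding RNA gene Gm29185. Next came a peak of 24.5 beside Errfi1, a feedback inhibitor of the EGF receptor (chromosome 4, 150775992 to 150776712, 77.3 kb), and a peak of 24.4 beside Gata3, a zinc finger factor of the mesangium and the collecting duct system, at 1062 kb (chromosome 2, 8794547 to 8795101).

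The other 10 of the 15 tallest had folds between 19.5 and 23.4. Of these, the peak nearest to the zinc transporter gene Slc30a5 lay in the desert that also borders Pik3r1, the regulatory subunit of PI3-kinase, and the peak nearest to Rbbp8, a DNA repair gene, lay in that of Gata6. The peak nearest to Ccdc54 (23.4) shared its desert with Cblb, a ubiquitin ligase of immune signalling. Peaks of 23.1 lay 60.9 kb from Zfp36l1, an mRNA decay factor, and 70.2 kb from Adamts9, a secreted metalloprotease, each inside a long non-coding RNA gene. A peak of 21.2 lay 173 kb from the polarity gene Pard3, toward Nrp1, a receptor for VEGF and semaphorins. Those remaining were nearest to Dbpht2, Pcdh18, Cebpb and Nrep. Foxc2 peaks elsewhere in the neighbourhood were 4.14 kb from the summit at Cebpb and 6.72 kb at Ccdc54, and more than 50 kb away for the other 13.

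The density of members fell with distance from genes inside the deserts. On autosomes, 256 members lay between 50 and 100 kb from a gene end, in 183 Mb of desert (1.40 per Mb, exact Poisson 95% interval 1.23 to 1.58). The density was 1.19 per Mb (1.04 to 1.35) between 100 and 200 kb, 0.679 (0.584 to 0.787) between 200 and 500 kb, and 0.311 (0.241 to 0.395) beyond 500 kb, where 67 members lay in 216 Mb. The nearest band thus held 4.50 times the density of the farthest (exact interval of the ratio 3.42 to 5.98). The 127 Foxc2-only desert peaks, counted the same way, gave 0.300, 0.184, 0.0835 and 0.0557 per Mb, a ratio of 5.39 (2.85 to 11.1). The intervals of the 2 ratios overlap, and the difference between antibodies was not tested. The rule set the limit of 50 kb but not the density within the deserts. Assembly gaps and unmappable sequence were not taken off the desert length, and their part in these densities was not tested.

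**Figure D2:**
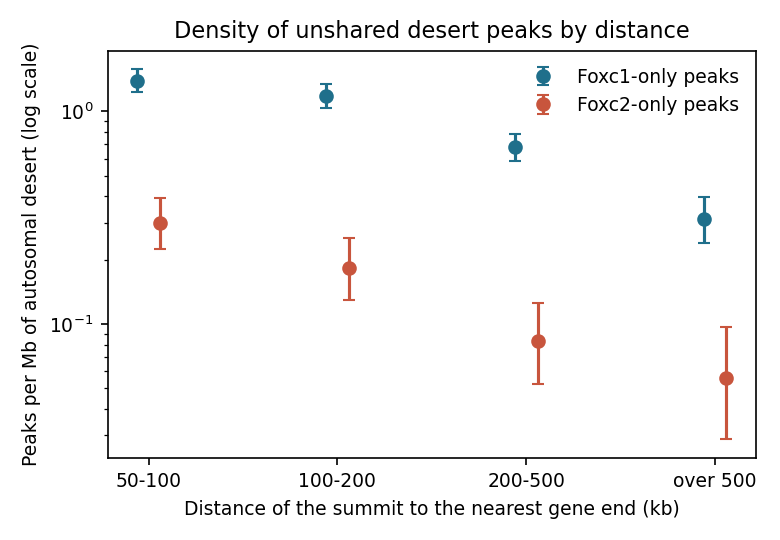
Peaks per Mb of autosomal desert (vertical axis, log scale) in 4 bands of distance from the summit to the nearest protein-coding gene end (kb), for Foxc1-only and Foxc2-only peaks. Bars are exact Poisson 95% intervals; Foxc1-only peaks fall from 1.40 to 0.311 per Mb and Foxc2-only peaks from 0.300 to 0.0557.

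Height varied little between the bands. Over all chromosomes the median fold was 5.03, 4.75 and 4.59 in the first 3 bands, outward from genes, and 4.90 in the 67 members beyond 500 kb. The order-statistic intervals were 4.75 to 5.38, 4.59 to 5.06, 4.27 to 4.90 and 4.59 to 5.38. A fold of 10 or more was found for 20 of 258 members in the nearest band (7.75%) and for 8 of 67 in the farthest (11.9%), with overlapping exact intervals of 4.80 to 11.7% and 5.30 to 22.2%. The median member lay 133 kb from a gene (quartiles 82.2 and 254 kb, farthest 1683 kb). Outside the deserts the unshared Foxc1 peaks were denser, at 5.69 per Mb within 1 kb of gene ends, 2.50 in gene bodies and 1.80 in intergenic sequence within 50 kb of genes, against 0.741 over all deserts. Just inside the limit were peaks 50.2 kb from Cstad (fold 3.80), 50.4 kb from Aldoart1 (7.59) and 50.4 kb from Bicc1 (5.06). Just outside it were peaks 49.7 kb from Steap4 (3.80), 49.4 kb from Cstad (4.11) and 49.3 kb from Ubr2 (3.80).

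Members were few on the sex chromosomes, as were Foxc1 peaks of all classes together. The X chromosome held 5 members in 77.9 Mb of desert (0.0642 per Mb, exact interval 0.0208 to 0.150), against 0.858 per Mb over the autosomes (0.797 to 0.922). Over the whole Foxc1 list, X held 32 of 5207 peaks, while autosomes held from 158 (chromosome 19) to 409 (chromosome 2). The low number on X is thus a trait of the whole list and not of the members. Among autosomes the density ran from 0.605 on chromosome 12 to 1.43 on chromosome 13 (0.416 to 0.849 and 1.10 to 1.82), with chromosomes 16, 10 and 2 at 1.31, 1.28 and 1.22. The members on X included peaks of fold 16.3, in the desert between Bcor and H2al1j, and 14.1, nearest to Ddx3x. The 2 members on Y were the only ones outside a desert with a gene on both sides, and had folds of 3.00 and 2.17, the latter the lowest of all members. The sex of the animals is not in the labels used here, and its part in these values was not tested.

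**Figure D3:**
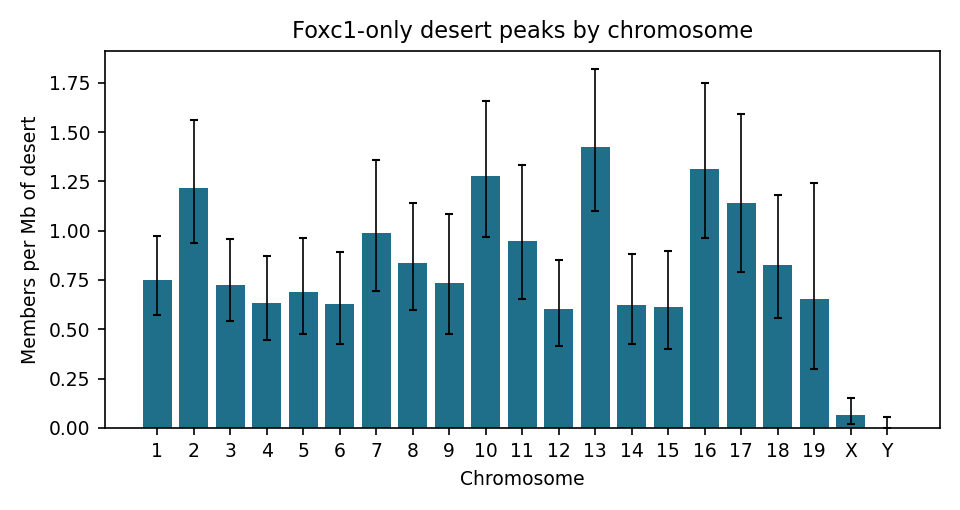
Members per Mb of desert on each chromosome, with exact Poisson 95% intervals as error bars. Chromosome 13 is highest at 1.43 per Mb, X stands at 0.0642, and Y has no member in a desert with 2 bordering genes.

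The members were spread over 460 of 2967 deserts (15.5%), where a desert is a gap of more than 100 kb between protein-coding genes. Deserts with a member had a median length of 415 kb and those without 210 kb. A longer desert has more sequence in which a member can lie, so this difference is no finding about the members. Of the 460 deserts with a member, 316 held 1, while 65 held 3 or more and together 271 members, and 20 held 5 or more. Of these 20 deserts, 15 had a member of fold 10 or more. Over all members 9.37% reached that fold, and a desert with more members has more chances to hold one. The count is therefore no result about rich deserts. Members per Mb ran from 1.95 to 37.6 among the 20. The richest by count, between Gm44812 and Mctp2 on chromosome 7 (70584962 to 72077826), held 10 members, at 7.18 per Mb. They were the peak of 37.8 and 9 others of fold 3.32 to 5.85, including the one at the start of the non-coding gene 6030442E23Rik, 14.5 kb from the tallest. The next, on chromosome 16 between Adamts5, an aggrecan-cleaving protease, and N6amt1, held 9, of fold 3.13 to 10.3.

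The desert between Nmbr and Cited2 held 8 members, and all of them were nearest to Cited2, a co-regulator that binds CBP and p300, at distances of 91.1 to 1098 kb. Their folds were 3.96 to 9.02, and 4 lay inside the non-coding genes Gm20125 and Gm32543. In the desert between Ccdc54 and Cblb, 5 of 7 members lay 202 to 287 kb from Ccdc54. The desert between Nr2f1, an orphan nuclear receptor, and Arrdc3 held 7 members, nearest to Nr2f1 in every case, at 285 to 1244 kb. Its 3 tallest (16.0, 11.0 and 12.5) were the 3 farthest from Nr2f1. Deserts beside Klf6, a zinc finger factor, Zeb2 and Arid1b, a chromatin remodelling subunit, also held 7 each.

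Shorter deserts held some of the densest groups, named here after their values were seen. Between Rad51b and Zfp36l1, 6 members stood in 259 kb, at folds of 4.44, 2.50, 15.7, 10.6, 6.17 and 23.1 in order along the chromosome. Between Arglu1 and Fam155a, 6 stood in 515 kb at folds of 5.54 to 14.6. Between Ndfip2 and Spry2, an inhibitor of receptor tyrosine kinase signalling, 6 stood in 583 kb, of which 5 were nearest to Spry2. Of the 5 beside Gata3, in a desert of 2461 kb, all lay within 1027 to 1151 kb of that gene and none nearer.

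**Figure D4:**
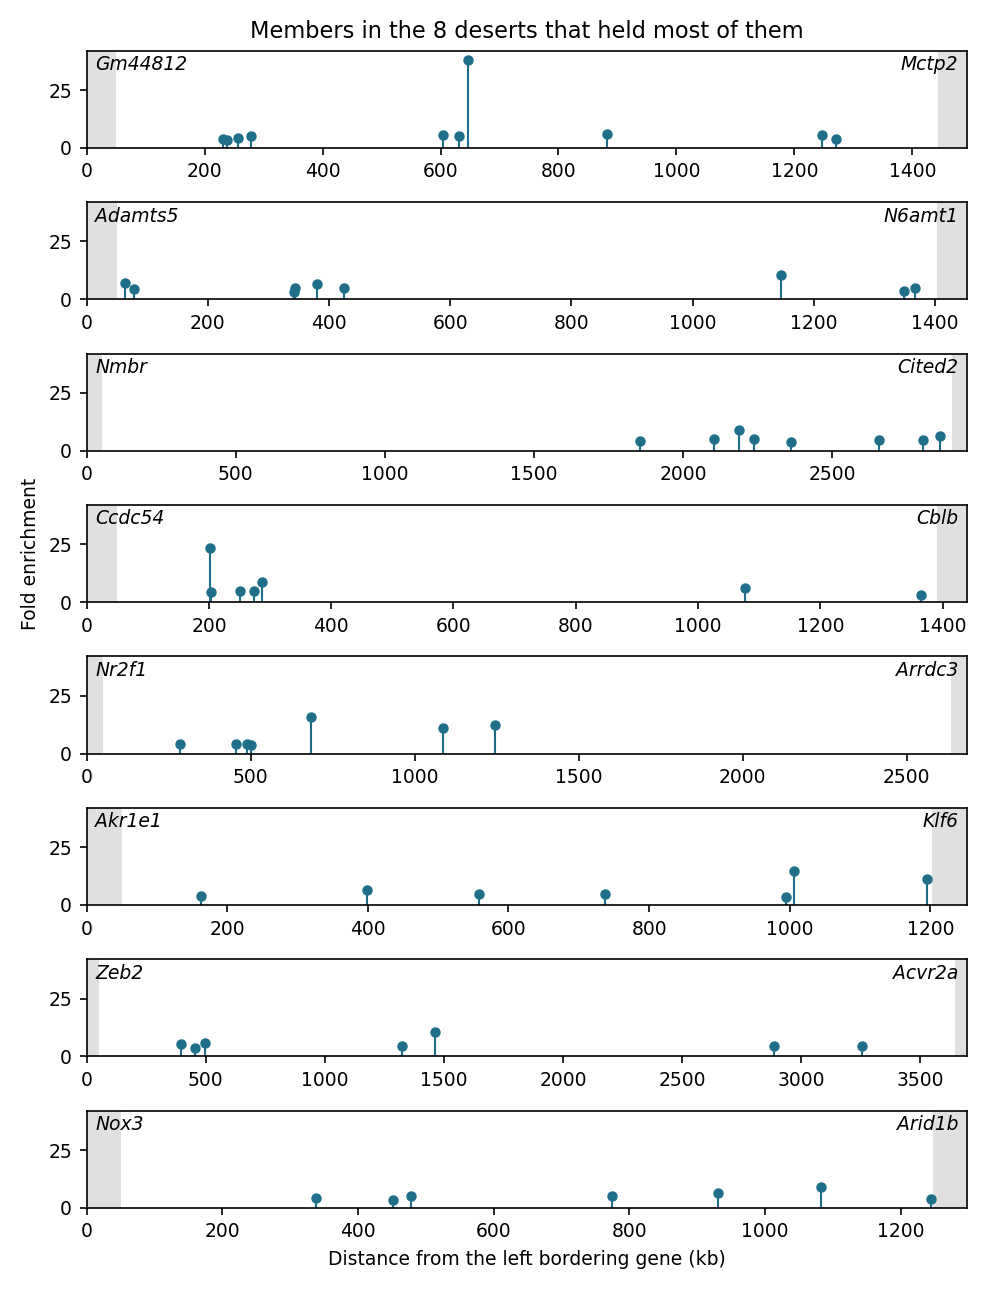
Position of each member (horizontal axis, kb from the left bordering gene) and its fold enrichment (vertical axis) in the 8 deserts that held most members, with the bordering genes named. Grey bands are the 50 kb next to each gene, which the rule leaves out; the 37.8-fold peak of the first desert is the tallest, and the 7 members beside Nr2f1 lie between 285 and 1244 kb from it.

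Close groups were less common among desert peaks, where Foxc1 peaks were also sparser. Members stitched within 10 kb formed 33 clusters of 67 members (8.97%). Only the cluster at Spry2 held 3, on chromosome 14 (105737258 to 105745042), with folds of 3.96, 16.0 and 6.11. The pairs of highest fold were at Errfi1 (24.5 and 8.54), Ccdc54 (23.4 and 4.27), Cebpb, a leucine zipper factor (19.9 and 5.06), Prdm2 (19.5 and 17.6), Dusp6, a phosphatase of ERK kinases (18.7 and 9.49), Pde3a (17.9 and 4.27), Tab2 (12.9 and 8.07), Pard3 (11.4 and 6.64) and Meis1, a homeobox factor (9.02 and 3.80). Another Foxc1 peak of any class lay within 10 kb of 72 members (9.64%). The share was 13.9% for intergenic peaks nearer to genes, 16.7% in gene bodies, 16.2% at gene ends and 25.8% for shared peaks. The median distance to the next Foxc1 summit was 112 kb for members, against 65.8, 61.9, 83.6 and 42.9 kb in the same order.

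Foxc2 peaks were seldom near. No member had a Foxc2 summit within 1 kb (0 of 747, which allows a share of up to 0.402% when 3 counts are taken as the limit of a count of 0, and 0.493% by the exact interval), and the rule fixes much of this. Within 10 kb there were 18 (2.41%, exact interval 1.43 to 3.78%). The share was 10.1% for Foxc1-only peaks in the intergenic sequence near genes, 10.1% in gene bodies and 16.6% at gene ends. The position rule fixes part of this difference too. Of 2878 Foxc2 peaks, 1391 (48.3%) were unshared and within 1 kb of a gene end, where no member can be within 10 kb. The median distance to a Foxc2 summit was 431 kb. The 3 nearest pairs were nearest to Zfp706 (1.02 kb between summits, Foxc1 fold 5.38 and Foxc2 fold 5.67), Cebpb (1.98 kb, 5.06 and 4.67) and Nampt (2.45 kb, 3.48 and 4.33). In 6 of the 18 the Foxc2 peak was itself overlapped by another Foxc1 peak. Deserts with a Foxc2-only desert peak numbered 89, and 48 of them also held a member. Over all deserts, 460 of 2967 (15.5%) held a member. Deserts with a member were longer (median 415 kb, against 210 kb without). Length was not held equal, and the overlap was not tested. The depth of either library is unknown, so a weak Foxc2 signal under the calling threshold cannot be told apart from none.

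Members lay in non-coding genes more densely than elsewhere in the deserts. The summits of 171 members (22.9%, exact interval 19.9 to 26.1%) fell inside a RefSeq entry that does not code for protein, 165 of them in long non-coding RNA genes and 5 in pseudogenes. On autosomes, such entries covered 13.5% of desert sequence and held 22.6% of members, at 1.43 per Mb against 0.768 outside them, a ratio of 1.86 (exact interval 1.56 to 2.22). Distance from protein-coding genes was not held equal in this comparison. The non-coding genes 2600014E21Rik and Gm15270 held 4 members each, Gm15270 beside Ccn2, and 9530026P05Rik at Adamts9 held 2, of fold 23.1 and 5.13. A single member lay within 10 kb of a microRNA gene, 4.20 kb from Mir7214. The deserts of the rule are thus free of protein-coding genes only. When every RefSeq gene was counted, 185 Foxc1 peaks met the rule.

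Members lay beside several genes of glomerular cell types and of the matrix. The 520 genes that were nearest to a member made up 2.38% of all 21887 protein-coding genes and 11% of the 4744 that border a desert. Of 28 mesangial and pericyte genes, 15 bordered a desert and 7 were nearest to a member. Gata3 had 5 members, all of them 1027 to 1151 kb away. Ebf1, a factor of stromal cells, had 2 (folds 4.89 and 8.70), and Serpine2, a protease inhibitor, had 2. The integrin gene Itga8 had a member of fold 9.97 at 53.3 kb, and Fhl2 and the PDGF receptor gene Pdgfra had 1 each. Of 49 podocyte genes, 21 bordered a desert and 7 were nearest to a member. Pard3b had 3 members of fold 3.16 to 7.44, the adaptor gene Nck2 had 2 and Podxl, which encodes podocalyxin of the podocyte surface, had 2. The Podxl pair, of fold 2.56 and 4.11, lay 71.8 and 78.1 kb away with a Foxc2 peak of fold 5.67 at 5.61 kb. Clic5 and Efnb1 had 1 each, both of fold 4.27.

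Of 43 extracellular matrix and integrin genes, 27 bordered a desert and 10 were nearest to a member. Ccn2, a matricellular protein induced by TGF-beta, had 3 (folds 4.27 to 5.54, at 101 to 123 kb), and Itga1 had 2. The other 8 had 1 each. Among them were Col3a1 (4.11), Col8a1 (5.38), Fbn2 (5.85) and Itga4 (2.88), and Itga6, a laminin receptor chain, had the tallest (13.4 at 113 kb) and is named after its value was seen. Of 28 glomerular endothelial genes, 4 of 14 bordering a desert were nearest to a member. These were Nrp1 with 2 and Kdr, a VEGF receptor (7.91 at 55.5 kb), Ets1 and Nr2f2 with 1 each. Nr2f2 ends at 70366746 on chromosome 7, and the desert richest by count starts at 70584962, beside the predicted gene Gm44812. Members there were counted for Gm44812 or Mctp2 and not for Nr2f2. None of 28 tubule genes was nearest to a member, and just 4 of them bordered a desert. Of 22 immune cell genes, Ptprc alone was, and no other bordered one.

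Developmental transcription factors mostly bordered deserts. Of 110, 99 (90%) bordered a desert, against 21.7% of all protein-coding genes. Of these, 21 were nearest to a member (21.2%), 41 members in all. The share of bordering genes nearest to a member was 11% over all genes. It was 17.4% for forkhead, 20% for TGF-beta and BMP and 32.3% for axon guidance genes. Bordering developmental factors had a median of 288 kb of desert per gene, against 77.8 kb over all. Desert length was not held equal, so these shares are no result about the lists. Nr2f1 had 7 and Gata3 and Zeb2 had 5 each, while Ebf1 and Hes1, a target of Notch signalling, had 2 each. Of 44 forkhead genes, 23 bordered a desert, and Foxd1, Foxf1, Foxl1 and Foxq1 had 1 each, of fold 3.64 to 5.85. Of 44 genes of the TGF-beta and BMP pathway, 25 bordered a desert, and the activin receptor gene Acvr2a had 2 and the inhibitor Bambi, Bmp4, Gdf10 and Smad1 had 1 each. Of 42 axon guidance genes, 31 bordered a desert and 10 were nearest to a member, with Efnb2, an ephrin, at 3 (1110 to 1409 kb away) and the ephrin receptor gene Epha7 at 2 (1156 to 1348 kb away). Of 33 cadherins and protocadherins, 26 bordered a desert, and Pcdh18 had 3 and Cdh8 and Cdh26 had 1 each. These 3 genes made up 11.5% of the cadherins that border a desert, near the 11% over all bordering genes.

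Density gave another view of the lists, since long deserts have room for more members. Between 50 and 200 kb from a gene, the members stood at 1.07 per Mb over all genes (exact interval 0.980 to 1.17). They stood at 4.19 per Mb beside mesangial genes (7 members, 1.68 to 8.62), 3.69 beside matrix and integrin genes (10 members, 1.77 to 6.78), 3.12 beside podocyte genes (8 members, 1.35 to 6.15) and 2.99 beside endothelial genes (4 members, 0.815 to 7.66). Beside developmental transcription factors the value was 0.951 (15 members, 0.532 to 1.57), beside axon guidance genes 0.932 (5 members) and beside cadherins 0.325 (2 members, 0.0394 to 1.17). Over the whole desert length the value for all genes was 0.741 per Mb, and 2 lists read differently. Developmental transcription factors then stood above it, at 1.15 (0.826 to 1.56), and cadherins wholly below it, at 0.124 (0.0403 to 0.289). On autosomes alone the value for all genes was 0.858 per Mb (0.797 to 0.922). That value lies inside the interval for developmental transcription factors, so their place above 0.741 depends on the value they are set against. Mesangial, matrix, podocyte and endothelial genes stood at 4.16, 2.95, 2.10 and 1.43, and the interval for endothelial genes (0.465 to 3.35) included the value over all genes on this scale too. Between 50 and 200 kb, forkhead and TGF-beta genes stood at 1.75 and 1.38, with 4 members each and intervals that include the value over all genes. Tubule genes had 0 members in 0.266 Mb of such desert. Lists share genes (Gata3, Itga8 and Efnb1 among them), bordering genes share deserts, and nothing here is called particular to a list. The lists were chosen with earlier results of these data known, so their place against the value over all genes is a description only. The intervals take members as independent, though some stand close together, such as the pairs within 10 kb at Podxl and Ccn2. The value of 4.16 for mesangial genes rests on 13 members, and 5 of them are the group 1027 to 1151 kb from Gata3. The value over all genes takes in X and Y. On autosomes alone, members stood at 1.40 per Mb from 50 to 100 kb and 1.19 from 100 to 200 kb.

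**Figure D5:**
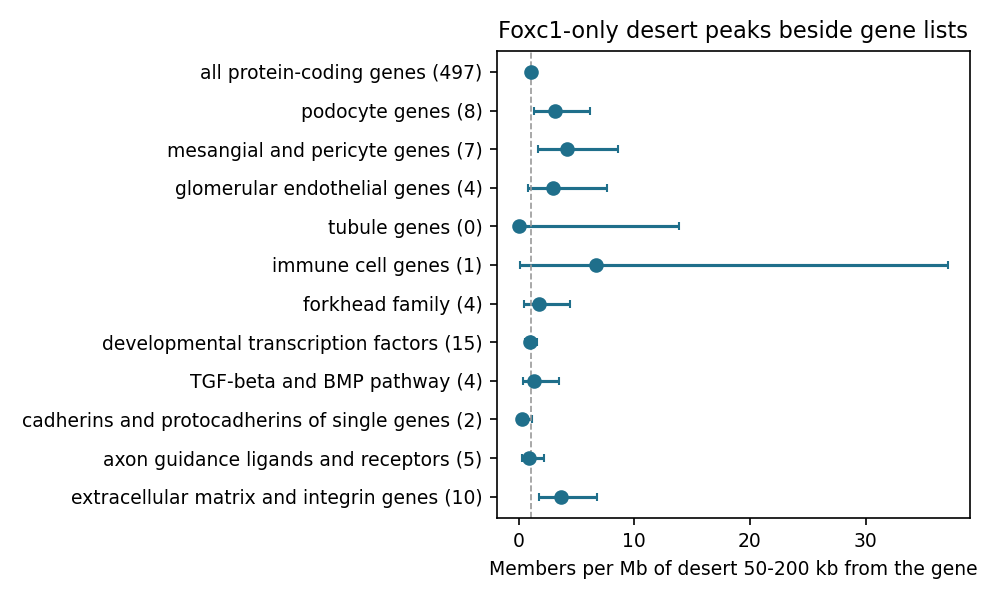
Members per Mb of desert lying 50 to 200 kb from the nearest gene (horizontal axis), for all protein-coding genes and for the genes of 11 lists, with the number of members in parentheses and exact Poisson 95% intervals as bars. The dashed line is the value over all genes on all chromosomes, 1.07 per Mb. The lowest bounds for mesangial, matrix and podocyte genes lie above it at 1.68, 1.77 and 1.35, and the immune gene value rests on 1 member. The lists were chosen with earlier results of these data known, so this is a description only. The bars take members as independent, though some stand close together. On autosomes alone, members stood at 1.40 per Mb from 50 to 100 kb and 1.19 from 100 to 200 kb.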

How the data were processed

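Chromatin of glomeruli was examined with 1 library per antibody, grouped by title. Per the submitters' processing notes, the tools were Bowtie2 and MACS2 and the build mm10. For versions, settings, control and pooling, the sources used here give nothing. The deposited lists give each peak's position, its fold enrichment (a ratio to local background), the deposited minus log10 (−log10) of p-value and q-value, and a deposited score, which was not used. Every Foxc1 peak had a q-value under 0.05. Lists carry no read counts, so depth is unknown.

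RefSeq's annotation of GRCm38.p6 supplied the spans of 21887 protein-coding genes, with both ends of a span counted alike. Desert length is what remains of gaps over 100 kb after 50 kb is taken off each side; sequence beyond the outermost genes was not counted. Intervals are exact at 95% (Clopper-Pearson, Poisson or order-statistic; scipy 1.17.1) and cover counting only. Classification, overlap and density were tested on simulated peaks. No test between groups was made, since peaks are not replicates. Each of the 441 genes of the 11 lists was found in the table. Members and lists were chosen with earlier results of these data known. Named were the 15 tallest members, the 10 largest clusters, the 5 richest deserts, the members at the 50 kb limit, up to 6 genes per list and the 3 members nearest to Foxc2 peaks. Further deserts, and Itga6, were named after their values were seen. Some genes that this rule takes are not reported here. The motif, base composition and repeat analyses planned around all summits need a genome sequence, which was not used here; promoter windows of RefSeq stood in, chosen later. Alternatives varied the overlap, the distance, the gene set, the peak threshold and the stitching.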

Additional observations from a re-analysis of the deposited data

How the results depend on the processing

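Of 31 alternatives, 21 left the value within its interval or a count within 1.5 times, and 10 did not. The number of members, 747, became 487 with a limit of 100 kb, 339 with Foxc1 peaks of fold 5 or more and 185 with every RefSeq gene counted. The median fold rose from 4.75 to 5.00001 with peaks of q under 1e-05, which leaves out low peaks by construction. Clusters went from 33 to 62 when stitched within 25 kb. Nearest genes went from 520 to 336 with a limit of 100 kb and to 270 with peaks of fold 5 or more, and genes on both sides numbered 870. The share of members at non-coding genes went from 22.9 to 40.3% when summits within 10 kb were counted. Without protein-coding genes with predicted symbols, an alternative chosen after seeing the data, the ratio of density between 50 and 100 kb to that beyond 500 kb went from 4.08 to 5.98 over all chromosomes. With fold 5 or more it was 4.45. Other motif windows, soft-masked bases and base composition were not run. No paired analysis was possible because each antibody has 1 library. No library can be left out for the same reason.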
